A study of Mus musculus with 6 samples.

Results

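The Notch pathway genes described here are the receptors Notch1, Notch2, Notch3 and Notch4, the ligands Jag1, Jag2 and Dll1, and the targets Hes1, Hey1 and Heyl. They were chosen by name for their role in the pathway and not for their values, though with earlier results of these data known. They are 10 of the 19060 genes in the table. Their RNA was measured in the proximal end of the mouse incisor, a tooth that grows throughout life from stem cells kept at that end. RNA was sequenced from 3 control and 3 mutant samples. Control mice were Fgfr1fl/fl, carrying loxP sites around part of the gene for FGF receptor 1 on both alleles, although their genotype label reads wild type. Mutant mice carried the same floxed alleles together with Gli1-Cre (Gli1CreER, a Cre that tamoxifen activates). Both groups were given tamoxifen at 1 month of age and collected 1 week later, so the floxed alleles and the tamoxifen were shared and the Cre was not. The Cre acts only in cells that express Gli1, a marker of incisor mesenchymal stem cells, whereas the RNA came from all cells of the dissected tissue. In such bulk RNA, fewer cells of a type and less RNA per cell cannot be told apart. The labels do not say that each sample came from a separate animal, and p-values here measure only the spread between these samples.

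Notch signaling passes between touching cells. A ligand of the Jagged or Delta family on one cell binds a Notch receptor on its neighbour, the receptor is cleaved by an ADAM protease and then by gamma-secretase, and its freed intracellular domain joins the DNA-binding protein RBPJ to switch on repressor genes of the Hes and Hey families. In teeth, Notch receptors and ligands are known from the stem cell region and stratum intermedium of the dental epithelium and from the pulp and its vessels.

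The 3 control samples held between 31060222 and 32712448 counts and the 3 mutant samples between 5276557 and 11819576, so the mutant values rest on fewer reads. Between 3.83 and 3.96% of the genes in the table had 0 counts in the control samples, and between 17.1 and 30.3% in the mutant samples. Values below are CPM, counts scaled to a common library size by the upper quartile. Pearson correlations of log2 CPM ran from 0.944 to 0.973 between control samples and from 0.725 to 0.791 between mutant samples. Between a control and a mutant sample they ran from 0.689 to 0.818. Fgfr1, the deleted gene, was at 529, 924 and 434 CPM in control replicates 1, 2 and 3 and at 148, 318 and 262 CPM in mutant replicates 1, 2 and 3. All mutant samples were below all control samples, as they were for 16.3% of all genes tested. The log2 fold change of Fgfr1 was -1.37 (standard error, SE, 0.40), with an adjusted p of 0.0881 from edgeR's quasi-likelihood test (unadjusted p = 0.00846). It was -0.99 without control replicate 2. Once trends with transcript length and GC content were removed (below), it was -0.74 (adjusted p = 0.270 in edgeR's test). Markers of the labelled tissue were present: those of dental epithelium summed to at least 31551 CPM and those of dental mesenchyme to at least 1337 CPM in every sample. Most of the mesenchyme sum was Vim, at 1028 CPM or more, while Msx1 was at 165 to 363 CPM and Barx1 at no more than 1.81 CPM.

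None of the 10 Notch genes passed the test for a difference between control and mutant incisors, although some did so under other settings given beside them below. At the study's threshold, an unadjusted p under 0.05 with a change of over 1.5-fold, edgeR's quasi-likelihood test called 0 of the 10 in either direction, beside 8.92% of the 15826 genes tested called lower and 10.9% called higher in the mutant. At an adjusted p under 0.05 the test called 0 of the 10, beside 6.79% of all genes tested. An unadjusted p under 0.05 was reached by 0 members, and DESeq2 also called 0 at an adjusted p under 0.05. The smallest adjusted p of a member was 0.259 in edgeR and 0.222 in DESeq2. The fitted change was below 0 for 8 of the 10, with a median log2 change of -0.57 against -0.04 over all genes tested. The SEs ran from 0.28 to 1.22, and the 95% interval of the change lay within 2-fold either way for only 2 members, Jag1 and Hes1, while those of the other 8 reached beyond 2-fold on at least one side. The groups overlapped for 9 of the 10 genes, and for the remaining one, Heyl, all mutant samples were below all control samples, as they were for 16.3% of all genes tested.

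**Figure D1:**
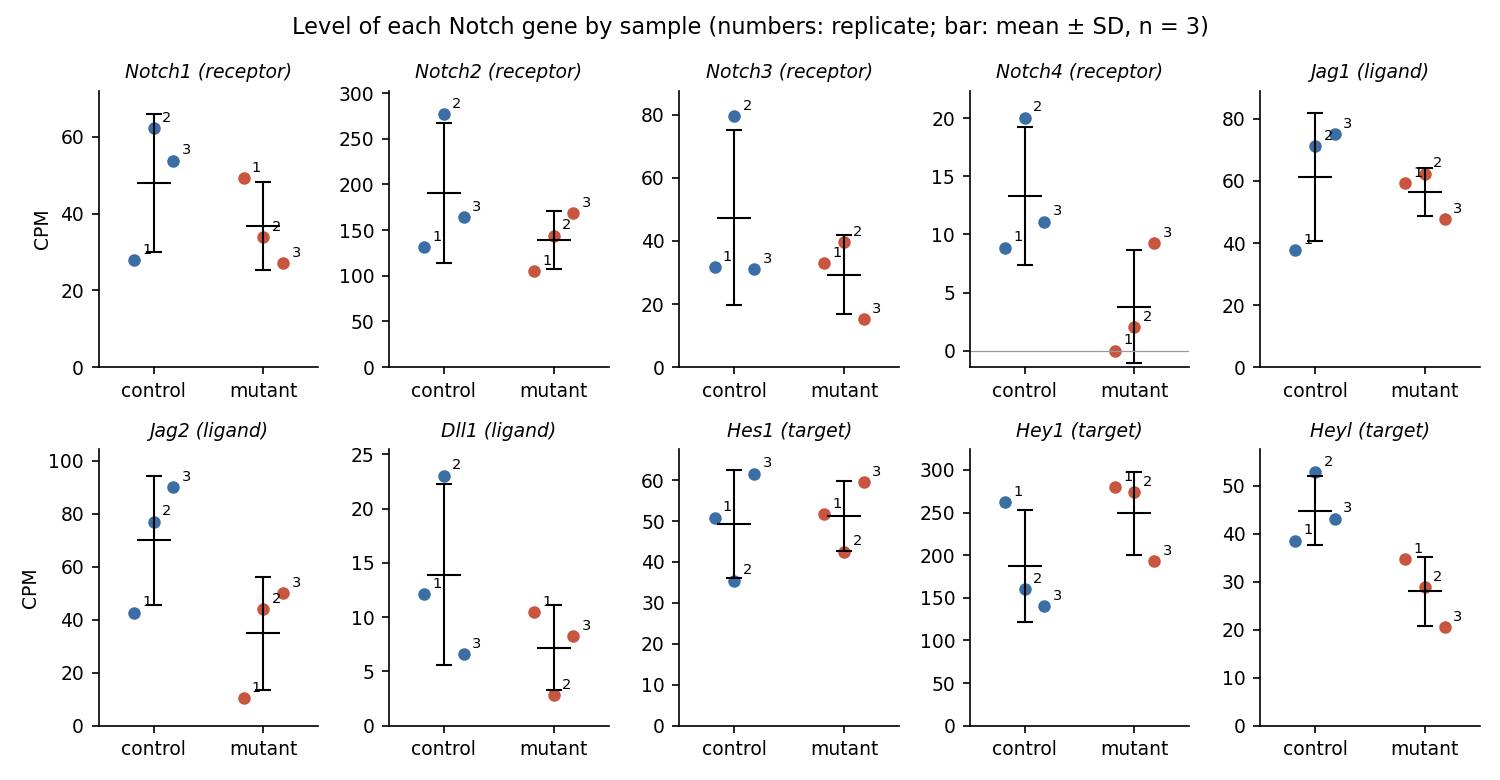
Level of each Notch gene in CPM (y axis, a separate scale per gene) in the 3 control and 3 mutant samples. Points carry their replicate number, and bars give the mean ± SD (n = 3). Only for Heyl do the groups not overlap, with mutant samples between 20.5 and 34.7 CPM and control samples between 38.5 and 52.8 CPM.

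Levels were compared between genes per length, as CPM divided by the length in kilobases of the longest transcript of the coding class (untranslated ends included). Hey1 stood highest in every sample, with 77.3 ± 26.9 CPM per kilobase in control (SD, n = 3) and 103 ± 20 in mutant. Hes1 came second at 33.6 ± 8.94 in control and 34.9 ± 5.78 in mutant. Notch2 led the receptors at 18.2 ± 7.30 in control and 13.3 ± 3.01 in mutant. The genes between ran close together in control, with Jag2 at 13.7 ± 4.78, Jag1 at 10.9 ± 3.67 and Heyl at 9.88 ± 1.60 CPM per kilobase, and these 3 neighbours did not differ beyond their SDs. Notch3 (5.91 ± 3.47), Notch1 (5.06 ± 1.89), Dll1 (3.89 ± 2.34) and Notch4 (2.02 ± 0.90) made up the low end, and neighbours there also lay within their SDs. In mutant samples Jag1 (10.1 ± 1.38) stood above Jag2 (6.83 ± 4.18) and Notch1 (3.87 ± 1.21) above Notch3 (3.66 ± 1.57), and these too were differences within the SDs.

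The receptors are large single-pass proteins that act as both the sensor and, once cleaved, the messenger. Notch1, on chromosome 2 of GRCm38 from 26457903 to 26516663 (minus strand), was at 27.9, 62.3 and 53.8 CPM in control replicates 1, 2 and 3 and at 49.3, 33.8 and 27.0 CPM in mutant replicates 1, 2 and 3. The lowest control sample and the highest mutant sample cross, so that the groups overlap over most of their range. The log2 fold change of Notch1 was -0.39 (SE 0.38), with an adjusted p of 0.649 in edgeR's test and a 95% interval from -1.25 to 0.47.

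Notch2, on chromosome 3 from 98013527 to 98150361 (plus strand), was the receptor with most RNA per length. It was at 131, 277 and 164 CPM in the control and 105, 144 and 168 CPM in the mutant samples. Control replicate 2 stood far above the other 5 samples, which ran together from 105 to 168 CPM. Its log2 fold change was -0.45 (SE 0.33, adjusted p = 0.526 in edgeR's test), and -0.08 without control replicate 2.

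Notch3, on chromosome 17 from 32120820 to 32166852 (minus strand), is the receptor of vascular smooth muscle cells and pericytes, the mural cells around vessels. It was at 31.6, 79.5 and 31.0 CPM in the control and 33, 39.7 and 15.3 CPM in the mutant samples. As for Notch2, control replicate 2 was the high sample, and the 2 other controls lay within the mutant range. For Notch3 the log2 fold change was -0.69 (SE 0.49, adjusted p = 0.512 in edgeR's test), and -0.10 without control replicate 2.

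Notch4, on chromosome 17 from 34564268 to 34588503 (plus strand), is mainly a receptor of endothelial cells. Its counts were 304, 730 and 384 in the control and 0, 24 and 92 in the mutant samples, or 8.86, 20.1 and 11.1 CPM against 0, 2.05 and 9.27 CPM. A count of 0 in mutant replicate 1 allows up to 3 counts, which is 0.655 CPM, and this covers counting error only. The 2 lower mutant samples were below every control sample, while mutant replicate 3 lay above control replicate 1. The log2 fold change of Notch4 was -1.80, the largest of the 10 and also the least certain (SE 1.22, 95% interval from -4.61 to 1.01, adjusted p = 0.489 in edgeR's test). It was -3.58 without mutant replicate 3, where it passed the study's threshold (adjusted p = 0.142), and -1.26 without mutant replicate 1. The 10 endothelial markers, Pecam1 and Cdh5 among them, summed to 251 to 363 CPM in the control and 192 to 295 CPM in the mutant samples. Of these markers 0 of 10 passed the study's threshold. Their fitted changes were above 0 for 4 and below 0 for 6, with a median log2 change of -0.20 as counted and 0.04 once trends with transcript length and GC content were removed (below), from -1.02 for Cdh5, the endothelial cadherin (-0.56 corrected), to 0.78 for the transcription factor Erg. Their part in the Notch4 values was not tested.

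The ligands are anchored in the membrane of the signal-sending cell. Jag1, on chromosome 2 from 137081456 to 137116644 (minus strand), was at 37.6, 71.1 and 75.1 CPM in the control and 59.4, 62.3 and 47.7 CPM in the mutant samples. All 3 mutant samples lay inside the control range. Jag1 had a log2 fold change of -0.12 (SE 0.31, adjusted p = 0.889 in edgeR's test), with a 95% interval from -0.82 to 0.59, one of the narrowest among the members.

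Jag2, on chromosome 12 from 112907819 to 112929776 (minus strand), was at 42.7, 77.0 and 90.0 CPM in the control and 10.5, 44.1 and 50.1 CPM in the mutant samples. Mutant replicate 1 was the low sample, and the groups met at the lowest control sample, which lay below 2 of the mutant samples. The log2 fold change was -0.99 (SE 0.54, 95% interval from -2.24 to 0.25, adjusted p = 0.367 in edgeR's test), and -0.59 without mutant replicate 1. The 8 dental epithelium markers, of which the enamel genes Amelx and Ambn made up most, summed to 85274 to 120895 CPM in the control and 31551 to 69673 CPM in the mutant samples, with 0 of the 8 past the study's threshold. All mutant sums were thus below all control sums. The fitted change was below 0 for 7 of the markers and above 0 for 1, Epcam (0.58), with a median log2 change of -0.63. After the length and GC correction the median was -0.49. In that fit 3 were lower and 1, Epcam, was higher past the study's threshold, beside 7.36% and 6.95% of all genes tested. The part of these markers in the values of Jag2 and Notch1, which dental epithelium expresses, was not tested.

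Dll1, on chromosome 17 from 15367354 to 15376872 (minus strand), had 12.1, 23.0 and 6.59 CPM in the control and 10.5, 2.82 and 8.26 CPM in the mutant samples. It was the ligand with the least RNA per length, and control replicate 3 lay below 2 mutant samples. For Dll1 the log2 fold change was -0.96 (SE 0.72, adjusted p = 0.536 in edgeR's test), and -0.39 without control replicate 2.

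The targets are helix-loop-helix repressors whose RNA serves as a readout of receptor activity, though other pathways also act on them. Hes1, on chromosome 16 from 30064384 to 30067796 (plus strand), was at 50.9, 35.5 and 61.6 CPM in the control and 51.7, 42.5 and 59.5 CPM in the mutant samples. All mutant samples lay inside the control range, as for Jag1. Hes1 had a log2 fold change of 0.06 (SE 0.28, adjusted p = 0.949 in edgeR's test) with a 95% interval from -0.60 to 0.71, and it had the smallest SE of the 10.

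Hey1, on chromosome 3 from 8663359 to 8667256 (minus strand), was the one member of the 10 besides Hes1 with a fitted change above 0. It was at 262, 160.0 and 140.3 CPM in the control and 279.8, 274 and 193 CPM in the mutant samples. Control replicate 1 lay among the mutant samples, and the other controls were below all of them. The log2 fold change of Hey1 was 0.41 (SE 0.31, 95% interval from -0.30 to 1.12, adjusted p = 0.538 in edgeR's test). It was 0.73 without control replicate 1, where it passed the study's threshold at an adjusted p of 0.254.

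Heyl, on chromosome 4 from 123233556 to 123249875 (plus strand), is a Hey-family member known from mural cells. It was at 38.5, 52.8 and 43.1 CPM in the control and 34.7, 28.9 and 20.5 CPM in the mutant samples, or 44.8 ± 7.26 against 28.0 ± 7.17 CPM (mean ± SD, n = 3). Its log2 fold change of -0.68 (SE 0.30) came nearest to the threshold, with an adjusted p of 0.259 in edgeR's test (unadjusted p = 0.054) and a 95% interval from -1.38 to 0.02. It passed the study's threshold under 6 of 17 alternative settings, which were 3 other scalings, DESeq2, limma-voom and the fit without mutant replicate 1 (-0.87, adjusted p = 0.107 in edgeR's test), and an adjusted p under 0.05 under 0 of them. The 9 mural markers summed to 423 to 686 CPM in the control and 548 to 687 CPM in the mutant samples. Of these 9 markers 2 were lower past the study's threshold and 0 were higher, beside 8.92% and 10.9% of all genes tested. The 2 were the receptor Pdgfrb (log2 fold change -1.07, adjusted p = 0.147 in edgeR's test) and the actin Acta2 (-0.59, adjusted p = 0.192). The groups overlapped for Pdgfrb, and after the length and GC correction its change was -0.45 and did not pass, while that of Acta2 was -0.69 and did. Rgs5, a pericyte gene, was higher in all mutant than in all control samples (log2 fold change 0.63, adjusted p = 0.402 in edgeR's test), and Cspg4 was called higher only in the corrected fit (0.78). The median log2 change of the 9 was -0.045 as counted and 0.27 corrected. Their part in the values of Heyl and Notch3 was not tested.

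**Figure D2:**
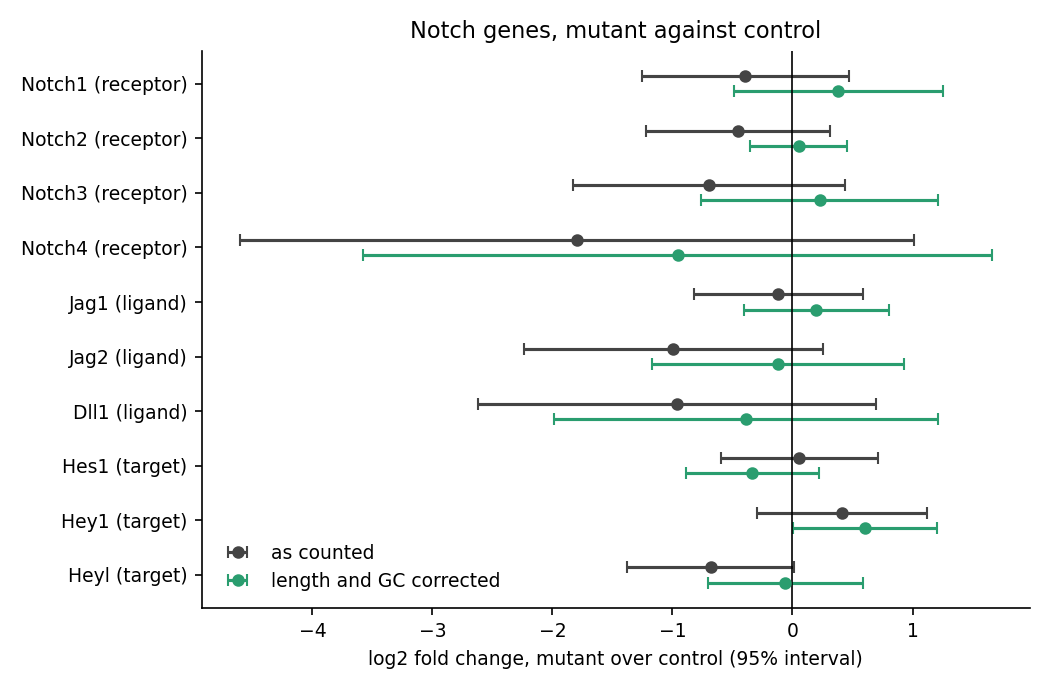
Log2 fold change of mutant over control (x axis) for each Notch gene, as a point with its 95% interval, as counted and corrected for transcript length and GC content. Every interval as counted includes 0, the widest being that of Notch4 from -4.61 to 1.01, and the points of 5 genes change side after the correction.

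The same samples stood out across several members. Control replicate 2 was the highest of the 6 samples for 6 of the 10 genes, control replicate 3 for 3 and mutant replicate 1 for 1. The lowest value came from mutant replicate 1 for 3 genes and from mutant replicate 3 for 3. Control replicate 2 was also the highest of the 6 for summed odontoblast markers, with 59162 CPM against at most 26499 in the others. Of that sum 50909 CPM was the collagen gene Col1a1. Dspp was also highest there (7742 against at most 3498 CPM), while Nes (400 against 393 in mutant replicate 3) and Dmp1 (111 against 97.9 in control replicate 3) were close to another sample. Control replicate 2 held 2183 CPM of skeletal muscle markers against at most 19.7 in the other control samples. In the mutant samples the muscle markers were at 3654, 112 and 649.7 CPM. Their part in the Notch values was not tested. Without control replicate 2 the median log2 change of the 10 genes was -0.15 in place of -0.57.

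Notch receptor transcripts are long and GC-rich, and fold changes in these libraries moved with both features. Among 12332 coding genes whose mean count was 50 or more, the median log2 change was 0.93 for the 599 with a transcript under 1000 bases and -0.24 for the 2791 of at least 5000 bases. Of the 2791 long genes, the 940 with under 45% GC had a median log2 change of 0.09 the 639 with 50 to 55% GC one of -0.47, the 305 with 55 to 60% GC one of -0.53 and the 63 with 60% or more one of -0.68. The receptor transcripts are 6591 to 10500 bases long with 53.6 to 61.2% GC, and Jag2 has 5106 bases and 61.9% GC. Hes1 and Hey1, the members with a fitted change above 0, have the shortest transcripts of the 10, with 1468 and 2423 bases. Neither lay at the median of its length bin. That median was 0.39 from 1000 to 1500 bases, against 0.06 for Hes1, and -0.10 from 2000 to 2500 bases, against 0.41 for Hey1. Notch1 (57.1% GC, log2 fold change -0.39), Notch2 (53.6%, -0.45) and Notch3 (59.6%, -0.69) lay near the median of long genes in their GC class, and Notch4 (61.2%, -1.80) lay further below its own.

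**Figure D3:**
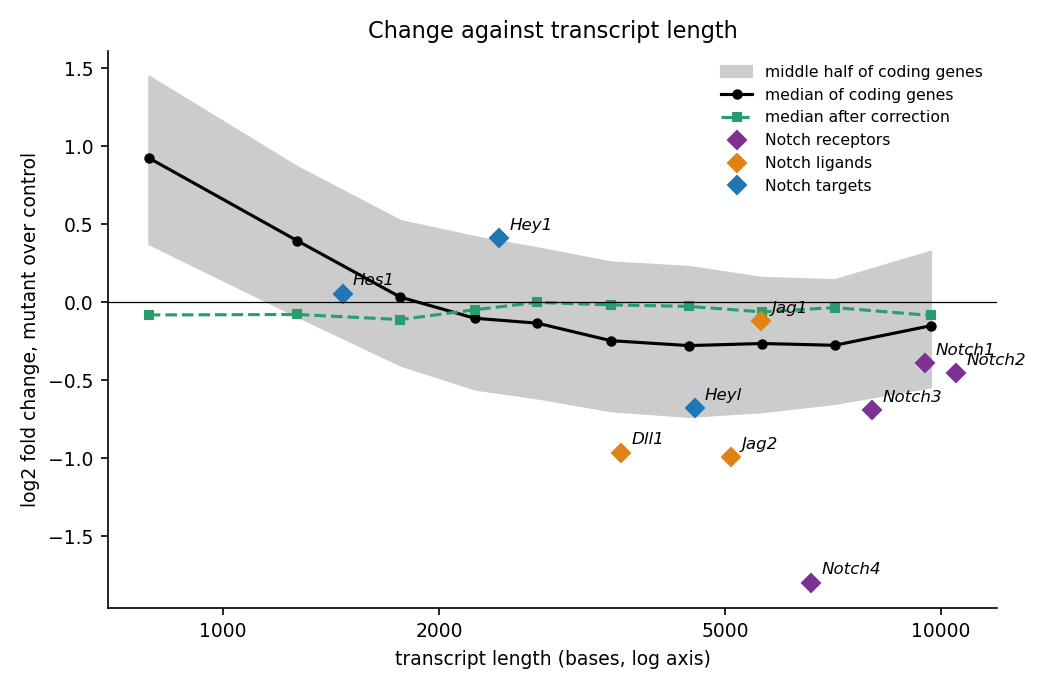
Log2 fold change of mutant over control (y axis) against transcript length in bases (log x axis) for the 10 Notch genes (diamonds) over the median of protein-coding genes in 10 length bins, before (black) and after (green) correction for length and GC content. The grey band is the middle 50% of genes, and the black line falls from 0.93 in the shortest bin to -0.28 for transcripts of 4000 to 5000 bases, stays near that level, and is at -0.15 from 8000 bases, the bin of Notch1, Notch2 and Notch3.

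When each sample's trend with length and GC content was removed, the members centred on 0. The median log2 change of the 10 was then -0.0034, against -0.03 over all genes tested, and 5 of the 10 were below 0. Notch1 moved to 0.38, Notch2 to 0.05 (95% interval from -0.35 to 0.46), Notch3 to 0.23, Jag1 to 0.20 and Hes1 to -0.33, each on the other side of 0 from its value as counted, and none of these passed the study's threshold. Heyl moved to -0.06 (unadjusted p = 0.836 and adjusted p = 0.960 in edgeR's test), while Jag2 moved to -0.12, Dll1 to -0.39 and Notch4 to -0.96. Hey1 moved to 0.60 (SE 0.26), with an adjusted p of 0.327 in edgeR's test (unadjusted p = 0.049). It was the only member past the study's threshold in this fit, 1 of 10 higher beside 6.95% of all genes tested, and 0 of 10 were lower beside 7.36%. Intervals lay within 2-fold either way for 4 members after the correction. The correction removes any change that follows length or GC content. Whether such a change came from genotype or from the libraries cannot be told apart here.

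**Figure D4:**
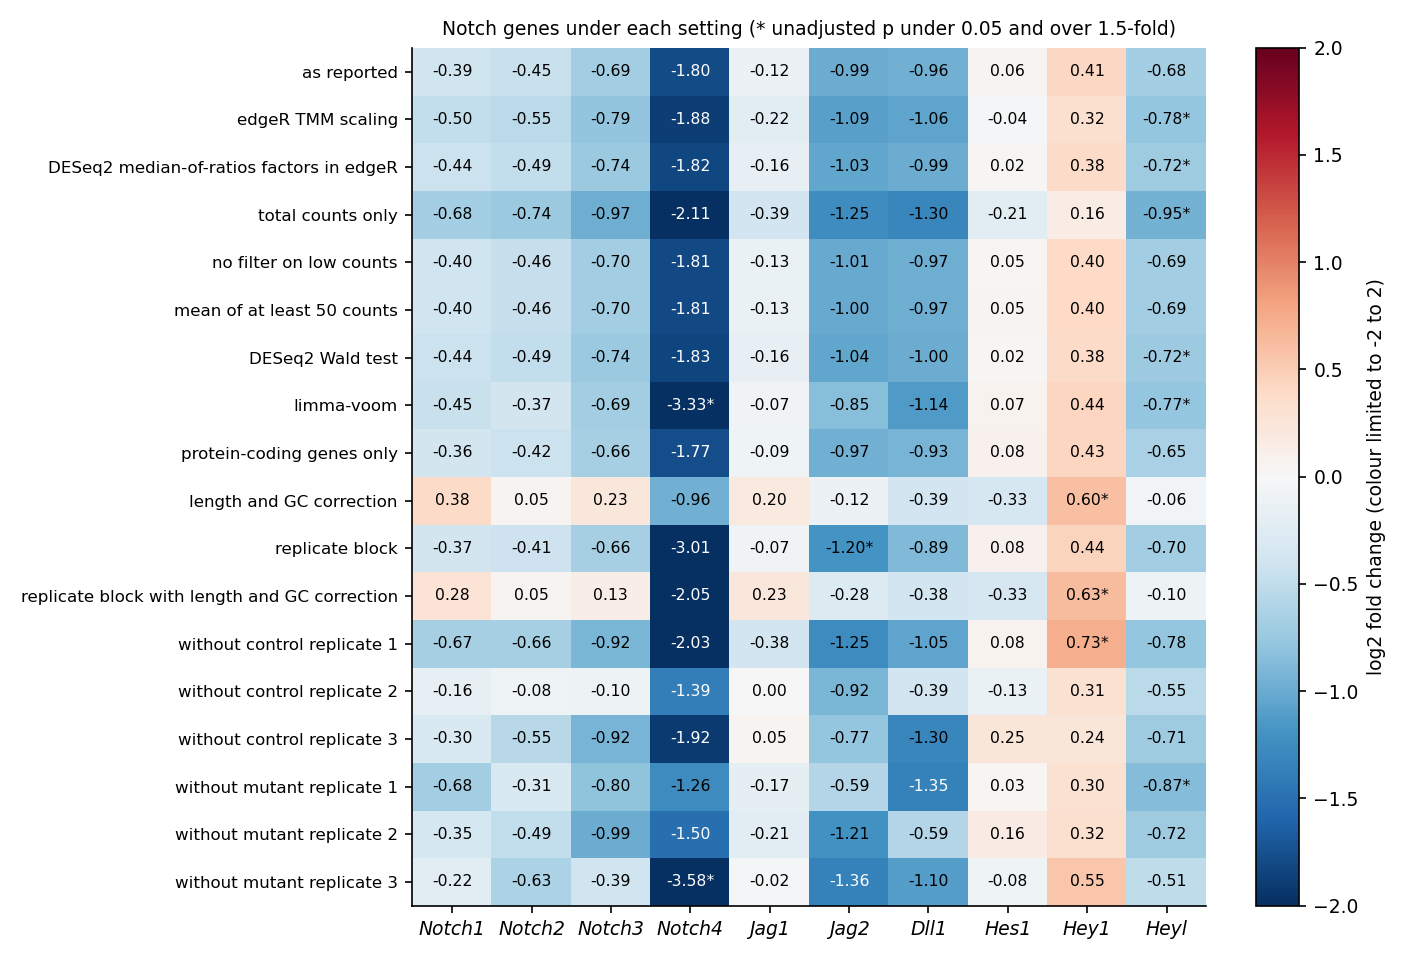
Log2 fold change of mutant over control for the 10 Notch genes (columns) as reported and under 17 alternative settings (rows), with colour limited to -2 to 2 and an asterisk where the unadjusted p is under 0.05 and the change over 1.5-fold. Heyl passes under 6 settings, Hey1 under 3, Notch4 under 2 and Jag2 under 1, while the other 6 genes pass under 0.

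The other genes of the pathway were taken from a list of 55 names that process, carry or limit the signal, of which 51 were in the table and 50 passed the filter on low counts. Past the study's threshold 10 of the 50 (20%) were lower in the mutant and 0 were higher, beside the 8.92% and 10.9% of all genes tested. For 15 of them (30%) no mutant sample reached the lowest control sample, as for 16.3% of all genes tested. The median log2 change of the 50 was -0.41 as counted and -0.20 after the length and GC correction. In the corrected fit 8 of the 50 were lower and 2 higher, beside 7.36% and 6.95% of all genes tested, and 6 genes were lower in both fits. The 2 higher were 1 corepressor and 1 turnover gene. The number past the threshold in either direction was 6 without control replicate 3 and 13 without mutant replicate 1. In those settings 2006 of 15600 and 4613 of 17227 genes tested were past it in either direction. Adjusted p-values under 0.05 were reached by 2 genes, Ncstn and Dtx1.

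The receptor cleavage genes held 4 of the 10 lower calls, out of 10 genes tested in that role, beside 8.92% of all genes tested. Ncstn, which encodes nicastrin, the gamma-secretase subunit that docks the receptor stub, was at 115, 114 and 126 CPM in the control and 46.3, 41.7 and 53.5 CPM in the mutant samples. The control samples lay close together and every mutant sample was below them by a wide gap. Ncstn fell by 1.33 on the log2 scale (SE 0.21), with an adjusted p of 0.0223 in edgeR's test, and by 1.05 after the correction (adjusted p = 0.0637). It passed the study's threshold under all 17 alternatives, with adjusted p-values from 6.65e-06 in DESeq2 to 0.162 without control replicate 3. The adjusted p was also above 0.05 without control replicate 1 (0.0645), mutant replicate 2 (0.0576) or mutant replicate 3 (0.0601).

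Furin, the convertase that makes the first cut in the receptor precursor, was at 141, 267 and 175 CPM in the control and 69.8, 106 and 120.3 CPM in the mutant samples. Furin fell by 0.98 on the log2 scale (adjusted p = 0.129 in edgeR's test), but its changes of -0.23 after the correction and -0.80 without mutant replicate 1 did not pass. Aph1a, a scaffold subunit of gamma-secretase named here after its values were seen, was also called, with a log2 fold change of -0.80 as counted and -0.44 after the correction. Adam10, the ADAM protease that cleaves bound receptors, was at 131, 197 and 150 CPM in the control and 142, 174 and 179 CPM in the mutant samples. The groups overlapped, with a log2 fold change of 0.05 (SE 0.25, adjusted p = 0.942 in edgeR's test), a sign that turned with the scaling (-0.22 with total counts only).

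Among nuclear genes 1 of 8 was lower past the study's threshold, beside 8.92% of all genes tested. It was Rbpj, the DNA-binding partner of all 4 receptors. Rbpj was at 48.6, 55.5 and 45.9 CPM in the control and 29.9, 21.2 and 16.6 CPM in the mutant samples. No mutant sample reached the lowest control sample. It fell by 1.15 on the log2 scale (SE 0.31), with an adjusted p of 0.0662 in edgeR's test (unadjusted p = 0.00531), and by 1.22 after the correction. Rbpj passed the study's threshold under all 17 alternatives, and its lowest adjusted p was 0.0137 in DESeq2 and its highest 0.245. The coactivator Maml1 was at 26.7, 44.9 and 31.6 CPM in the control and 20.5, 31.8 and 18.8 CPM in the mutant samples, with a log2 fold change of -0.53 as counted and 0.12 after the correction (adjusted p = 0.472 and 0.908 in edgeR's test).

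Of the corepressors 2 of 7 were lower past the study's threshold, beside 8.92% of all genes tested. Kdm5a, a histone demethylase, had control values of 56.6 ± 4.70 and mutant values of 35.4 ± 2.85 CPM (mean ± SD, n = 3), and Tle4, a Groucho-family corepressor, 22.1 ± 6.43 and 7.97 ± 3.93 CPM. Both fell as counted (by 0.68 and 1.48 on the log2 scale, adjusted p = 0.140 and 0.165 in edgeR's test) and after the correction (by 0.92 and 1.28). Neither passed without control replicate 2 (-0.61 and -1.46) or without control replicate 3 (-0.71 and -1.27). Pofut1, which adds the O-fucose that receptors need to bind ligands, was the 1 of 5 glycosylation genes called lower, beside the same 8.92%. It was at 46.2, 43.6 and 47.1 CPM in the control and 30.1, 18.6 and 9.07 CPM in the mutant samples, without overlap. Pofut1 fell by 1.25 on the log2 scale (adjusted p = 0.141 in edgeR's test), and its change of -0.80 after the correction did not pass, nor did those of -1.23 without control replicate 3 and -1.25 without mutant replicate 2. Lfng, a Fringe enzyme that sets which ligands a receptor answers to, was at 28.6, 22.6 and 36.9 CPM in the control and 43.2, 14.2 and 15.8 CPM in the mutant samples, with overlapping groups (log2 fold change -0.28, adjusted p = 0.826 in edgeR's test). Without mutant replicate 1 the change of Lfng was -0.98, past the study's threshold (adjusted p = 0.102 in edgeR's test), and after the correction it was 0.15.

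In the turnover group 2 of 9 genes were lower past the study's threshold, beside 8.92% of all genes tested. Both were of the Deltex family of ubiquitin ligases. Dtx1 was at 2.83, 3.08 and 1.68 CPM in the control samples and at 0 in all 3 mutant samples. Against the 3 counts that 0 over the mutant group allows (0.114 CPM), it was at least 22.1-fold lower, a bound that covers counting error only. Zeros were common in these libraries, at 17.1 to 30.3% of genes in the mutant and 3.83 to 3.96% in the control samples. The part of depth in the zeros of Dtx1 was not tested. Its adjusted p was 0.0464 in edgeR's test and ran from 0.00615 to 0.459 over the alternatives. Without 1 replicate that adjusted p was 0.160 (control replicate 1), 0.188 (control replicate 2), 0.190 (control replicate 3), 0.0494 (mutant replicate 1), 0.0576 (mutant replicate 2) or 0.0659 (mutant replicate 3). Dtx3 was at 34.8 ± 4.38 CPM in control and 17.7 ± 5.94 CPM in mutant (mean ± SD, n = 3), and fell by 0.97 on the log2 scale (adjusted p = 0.161 in edgeR's test). Its change of -0.69 after the correction did not pass, nor did those without control replicate 1 (-0.97), control replicate 2 (-0.88) or mutant replicate 3 (-0.81).

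The remaining roles gave no call, with 0 of 3 ligands, 0 of 4 genes of ligand endocytosis and 0 of 4 targets past the study's threshold. Dll4, the Delta ligand of endothelial cells, was at 23.2, 18.1 and 10 CPM in the control and 14.4, 5.98 and 5.44 CPM in the mutant samples. The groups overlapped at the lowest control sample (log2 fold change -1.0, SE 0.60, adjusted p = 0.410 in edgeR's test). After the length and GC correction the change was -0.42 (adjusted p = 0.840 in edgeR's test). Without mutant replicate 1, where 14.5% of all genes tested were called lower, it was -1.60, past the study's threshold (adjusted p = 0.0826). Dll4 stood with Notch4 beside the endothelial marker sums given above. The target Nrarp, a feedback inhibitor of the pathway, was at 21.8, 19.8 and 33.1 CPM in the control and 25.8, 20.5 and 9.57 CPM in the mutant samples (log2 fold change -0.42, adjusted p = 0.687 in edgeR's test). Hey2, the vascular Hey gene, was low throughout, with 5.16, 3.35 and 3.79 CPM in the control and 1.31, 6.15 and 0 CPM in the mutant samples (log2 fold change -0.71, adjusted p = 0.855 in edgeR's test).

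**Figure D5:**
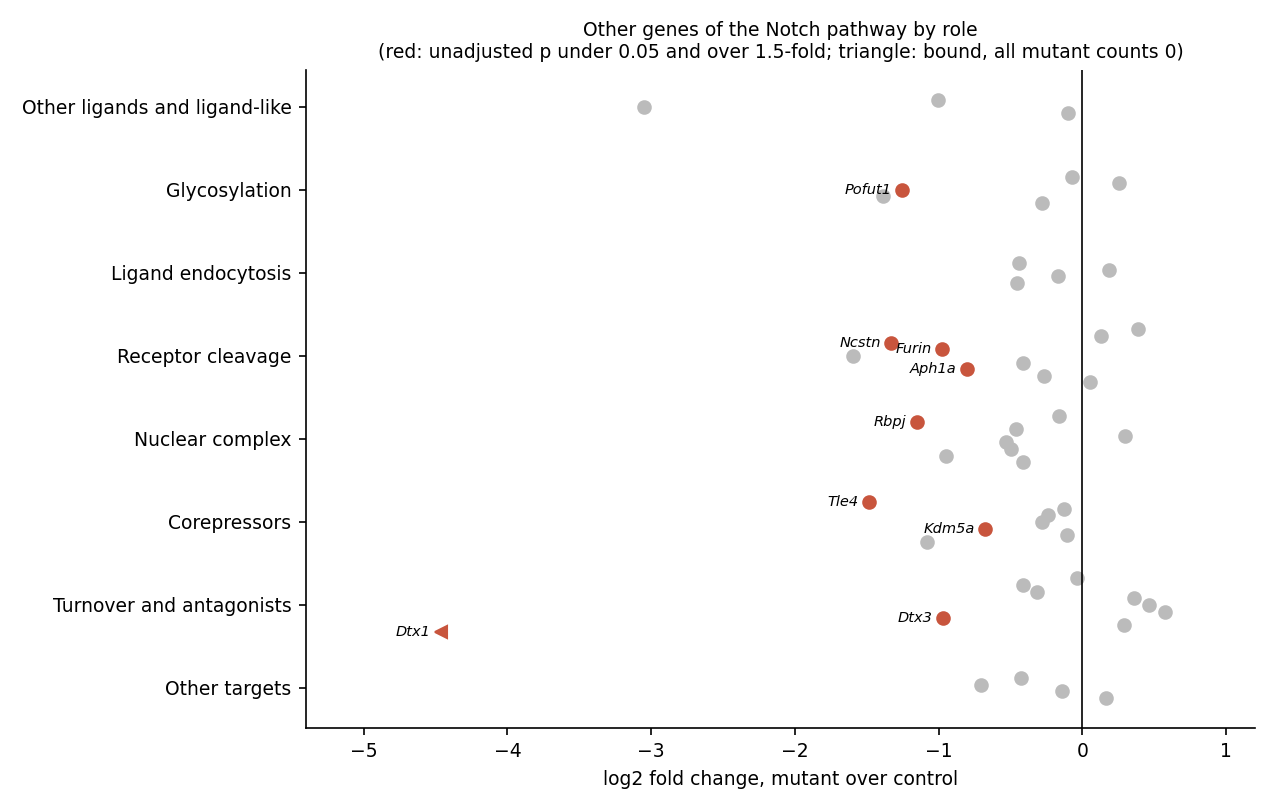
Log2 fold change of mutant over control (x axis) for the tested genes of the wider pathway, grouped by role (y axis), with 1 gene not drawn. Red points are genes past the study's threshold, all of them lower in the mutant, and the triangle for Dtx1 marks a bound because all mutant counts were 0.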

How the data were processed

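RNA from the proximal incisor was sequenced from 3 control and 3 mutant samples, grouped by their titles. Single reads were trimmed and aligned in Partek Flow (build mm10, GRCm38), and the authors deposited a table of estimated counts per gene, not normalized. The submitters' processing notes also name TopHat2 2.0.8. The counting model, annotation and filter are not given in the sources used here. A second deposited table holds the authors' own comparison of the groups and was not used.

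Counts were rounded and tested with edgeR 4.0.16 in R 4.3.3: upper-quartile scaling as in the study, the default filter on low counts (minimum count 10, total 15), a model of genotype alone, and two-sided quasi-likelihood tests, adjusted by Benjamini-Hochberg over all 15826 genes that passed. CPM are counts scaled by the same factors. SEs are approximate, the size of the log2 fold change over the root of its F statistic, and fitted changes of genes at 0 depend on the prior count. DESeq2 1.42.0 and limma 3.58.1 (limma-voom) served as alternatives, with other scalings and filters, coding genes only, a block for replicate number, each replicate left out in turn, and a correction that removed a smooth of transcript length and GC content per sample (mgcv 1.9.3, fitted on coding genes whose mean count was 50 or more, 15726 genes tested). The fits were tested on simulated counts with the same spread setting for all genes and both groups. That setting was not estimated from these data, so the simulation does not give error rates for them. Lengths, GC content and positions came from GENCODE M21, which held 18637 of the symbols, 216 more as synonyms and 207 not at all, and the counted models can differ from it. The listed genes Dll3, Neurl1, Hes2 and Hes3 were not analysed here.

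The members, lists and alternatives were chosen with earlier results of these data known. Named were all members, Fgfr1, 8 fixed pathway genes and up to 3 genes per role past the study's threshold with the smallest p, of which 1 gene is not reported here. A count of 0 was read as up to 3 counts, for counting error only. Total counts were at least 31060222 in control and at most 11819576 in mutant samples.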

Additional observations from a re-analysis of the deposited data

How the results depend on the processing

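Of 170 values of the 10 members under 17 alternatives, 142 kept their direction and side of the study's threshold, 12 newly passed it and 16 reversed, and for the other named pathway genes 225 of 254 did so, 18 no longer passed, 2 newly passed and 9 reversed. Adjusted calls of members stayed at 0 in all. The number of members past the threshold was 1 with TMM, DESeq2 factors, total counts, DESeq2, the length and GC correction, the replicate block and both of these together, 2 with limma-voom, and 0 to 1 without each replicate. Hes1 turned to -0.043 with TMM and -0.21 with total counts, and Adam10 to -0.041 and -0.22. With the correction Notch1 was 0.38, Notch2 0.052, Notch3 0.23, Jag1 0.20, Hes1 -0.33, Lfng 0.15, Maml1 0.12 and Adam10 -0.20, and with the block as well 0.28, 0.048, 0.13, 0.23, -0.33 and, for Maml1 and Adam10, 0.094 and -0.18. Without each replicate Jag1 ran from -0.38 to 0.054, Hes1 from -0.13 to 0.25 and Adam10 from -0.072 to 0.24, turning without control replicates 2 or 3 for Jag1, without control replicate 2 or mutant replicate 3 for Hes1, and without control replicate 1 or mutant replicate 3 for Adam10. The median of the members ran from -0.72 to -0.15 without each replicate, was -0.85 with total counts, -0.0034 with the correction and -0.027 with block and correction, and was between -0.66 and -0.53 under the others. Adjusted calls over all genes, 1074 as reported, were 229 without a filter, 370 at a mean of at least 50 counts, 54 among coding genes only, 117 with the correction, 508 with the block, 83 with both, and 76 to 606 without each replicate. Genes past the study's threshold, 3137 as reported, were 4733 without a filter, 1634 with block and correction, and 2006 to 4732 without each replicate. The 10 wider pathway genes past it were 6 without control replicate 3 and 13 without mutant replicate 1. Total counts moved the median of all genes to -0.30 and the split of higher and lower genes from 1726 and 1411 to 1253 and 2335. With merged exon lengths 8 of 10 members kept their rank. The causes of these shifts were not tested. Same-numbered samples of the groups did not deviate together (correlations 0.0472, 0.00937 and 0.0548), so the numbers were not taken as pairs. With the replicate block Jag2 passed the study's threshold (-1.20, adjusted p = 0.102), and no other named gene changed its side of that threshold. Dtx1 had no value at a mean of at least 50 counts. Depth limits low members most: 3 counts were 0.655 CPM in mutant replicate 1 and at most 0.0874 CPM in control samples.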

Other observations

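The 2 Hey-family members stood in different proportion in the groups, a comparison chosen after the values were seen. Heyl counts were 14.7, 33 and 30.8% of Hey1 counts in control replicates 1, 2 and 3 and 12.4, 10.6 and 10.6% in mutant replicates 1, 2 and 3. All mutant values were below all control values, with control replicate 1 close to mutant replicate 1. No test was made of this ratio, and Heyl has the longer transcript of the pair (4537 against 2423 bases).

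A further target, Hes7, did not pass the filter on low counts. It was at 0.35, 0.71 and 0.58 CPM in the control samples and at 0 in all mutant samples. Against the 3 counts that 0 over the mutant group allows it was at least 4.78-fold lower, a bound that covers counting error only.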
